A study of Mus musculus with 9 samples.

Results

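The enzymes that remove superoxide and peroxides, and the glutathione and thioredoxin systems that keep them reduced, were followed in RNA-seq of mouse heart. The members were chosen by name: every measured gene whose symbol begins with Gpx, Gst, Prdx, Txn, Glrx or Msr followed by a letter or digit (without Gstcd and Msr1), the superoxide dismutases Sod1, Sod2 and Sod3, and Cat, Gsr, Gclc, Gclm and Srxn1. The rule took 64 of the 16873 genes in the files. The 3 groups held 3 libraries each: hearts of wild-type (WT) mice on saline, hearts of WT mice on doxorubicin (DOX), and hearts of Sting-/- mice on the same drug. Doxorubicin, an anthracycline used against cancer, is toxic to the heart, and the series' design text describes a low-dose, chronic treatment. STING is the adaptor that passes the signal of the DNA sensor cGAS on to interferon and inflammatory genes, and the question of the series is what this pathway does in the doxorubicin-treated heart. The labels name no Cre driver for the Sting-/- hearts and give no dose, time, age or sex, and they do not state whether each library is its own animal. The p-values therefore rest on the spread between libraries, and this spread may be technical. Untreated Sting-/- hearts were not analysed here, so in both comparisons with the Sting-/- group an effect of the genotype alone and an effect on the response to the drug cannot be told apart.

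Values were FPKM, which divides the fragments of a gene by its transcript length and by the mapped fragments of the library, so that a level is a share of its library. Differences were tested on log2(FPKM + 1) with limma over all 9 libraries, for the 12485 genes whose mean reached 1 FPKM, and a gene was called higher or lower at a Benjamini-Hochberg adjusted p under 0.05. A log2 change on this scale understates the change of low genes. Read totals were not given, and depth was estimated from low FPKM values, which move in steps of about 1 fragment. It came to roughly 11 to 11.8 (in 1e+06 fragments) for saline, 12.9 to 13.3 for WT DOX and 8.1 to 8.6 for Sting-/- DOX. Sting1 (gene ID 72512), the gene named by the label, read 5.1, 5.43 and 5.93 FPKM with saline, 17.49, 17.96 and 17.76 with WT DOX, and 0.06, 0 and 0 with Sting-/- DOX, so the genotype label held in each library. The 16 cardiomyocyte markers were detected in every group, with a summed level of 92350 to 93400 FPKM in saline hearts, 61100 to 65220 in WT hearts on doxorubicin and 12570 to 13150 in Sting-/- hearts. In bulk tissue, fewer cells of a type and less RNA per cell cannot be told apart.

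Superoxide dismutases turn superoxide into hydrogen peroxide, which catalase, the glutathione peroxidases and the peroxiredoxins then reduce. The peroxidases draw their electrons from glutathione or thioredoxin, both of which are recharged with NADPH by glutathione reductase and the thioredoxin reductases. The heart holds many mitochondria, and its mitochondrial matrix has its own set of these enzymes, including Sod2, Prdx3, Txn2 and Txnrd2. The transcription factor NRF2 (Nfe2l2), held back by Keap1, binds antioxidant response elements near genes for glutathione synthesis and thioredoxin recycling, and anthracyclines are known to generate superoxide by redox cycling.

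The antioxidant response element core TGACNNNGC was looked for on both strands (on the other strand it reads GCNNNGTCA) in RefSeq promoters of the GRCm38.p6 assembly, from 250 bases before to 50 after each start. It was present in at least 1 promoter of 12 of the 55 members with an entry (21.8%), and in 17% of the 9990 tested genes and 14% of all 27025 genes with one. Of all promoters of this length, 12.4% held it. Among members higher in WT DOX than in saline it was present in 6 of 17 (35.3%), and among those lower in 4 of 23 (17.4%). These are matches of letters, not measured sites. The 250 bases before the start are shown for Gclm, Prdx1 and Txnrd1, which rose in WT DOX hearts, and for Gstm5, which fell and whose match lies close to its start (Gstm5 was chosen after its values were seen). Capitals mark the match.
Gclm, chr3:122245307-122245556, plus strand: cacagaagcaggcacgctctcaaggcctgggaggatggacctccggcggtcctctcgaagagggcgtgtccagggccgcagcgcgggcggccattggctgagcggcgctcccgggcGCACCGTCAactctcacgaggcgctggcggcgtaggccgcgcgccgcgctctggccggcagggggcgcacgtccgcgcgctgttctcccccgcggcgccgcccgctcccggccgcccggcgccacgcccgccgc
Prdx1, chr4:116685349-116685598, plus strand: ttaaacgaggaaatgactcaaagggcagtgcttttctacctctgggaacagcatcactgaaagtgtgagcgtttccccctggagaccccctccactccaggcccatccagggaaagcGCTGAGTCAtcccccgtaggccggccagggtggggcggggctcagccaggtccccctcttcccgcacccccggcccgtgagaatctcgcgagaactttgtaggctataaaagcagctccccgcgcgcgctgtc
Txnrd1, chr10:82858956-82859205, plus strand: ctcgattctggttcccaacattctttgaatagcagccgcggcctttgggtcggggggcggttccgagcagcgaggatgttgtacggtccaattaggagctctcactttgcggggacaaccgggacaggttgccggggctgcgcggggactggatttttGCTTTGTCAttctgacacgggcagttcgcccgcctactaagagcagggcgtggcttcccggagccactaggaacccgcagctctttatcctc
Gstm5, chr3:107895604-107895853, plus strand: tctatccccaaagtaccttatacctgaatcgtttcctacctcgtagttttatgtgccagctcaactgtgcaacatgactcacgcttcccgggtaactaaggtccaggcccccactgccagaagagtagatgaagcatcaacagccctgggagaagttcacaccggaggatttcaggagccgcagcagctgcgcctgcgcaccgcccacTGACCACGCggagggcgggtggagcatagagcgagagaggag
The match began 134 bases before the start in Gclm, 133 in Prdx1, 92 in Txnrd1 and 42 in Gstm5, and it read in the reverse orientation in the first 3 of these and forward in Gstm5. In Srxn1 a match began 28 bases after the start. The other members with a match were Gsta3, Gstm7, Msrb2, Sod1, Txndc2, Txndc5 and Txndc11.

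Of the 64 members, 59 reached a mean of 1 FPKM and were tested. The remaining 5 were Gsta2, Gstm3, Gsto2, Gstp3 and Txndc2, none of which exceeded 0.9 FPKM in any library. In WT DOX against saline, 22 members were higher and 26 lower, which is 81.4% of those tested, against 66.7% of all genes (45.3% higher and 21.5% lower). The median log2 change of the members was -0.08 and that of all tested genes 0.13. In Sting-/- DOX against WT DOX, 19 were higher and 32 lower (86.4%), against 83.8% of all genes (54.1% higher and 29.7% lower), with medians of -0.30 for the members and 0.25 for all genes. In Sting-/- DOX against saline, 24 were higher and 33 lower (96.6%), against 88.9% of all genes (63.0% higher and 25.9% lower), with medians of -0.40 and 0.49. The ranges of the groups compared did not overlap for 50 of the 59 members in WT DOX against saline, 49 in Sting-/- DOX against WT DOX and 56 in Sting-/- DOX against saline, where the shares of all genes were 71.7%, 84.8% and 89.2%. Changes of at least 1 on the log2 scale were called in 3 members upward and 0 downward in the first comparison (9.29% and 0.681% of all genes), 6 and 14 in the second (17.4% and 10.0%), and 10 and 13 in the third (30.7% and 11.2%). The comparisons share groups, so their values are set side by side and no overlap between them is given as a result.

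These counts moved with the scaling. Scaling each library by its median ratio to a common reference shifted the median of all genes from 0.13 to -0.08 in WT DOX against saline, from 0.25 to -0.01 in Sting-/- DOX against WT DOX and from 0.49 to 0.03 in Sting-/- DOX against saline. The members called higher and lower were then 16 and 35, 15 and 38, and 13 and 37 in the same order, and with quantile normalization 16 and 32, 18 and 33, and 18 and 34. Of all 12485 genes tested, 3582 were higher and 5087 lower, 4957 and 5114, and 5488 and 5274 under median-ratio scaling. With quantile normalization these were 3523 and 5233, 5211 and 4953, and 5526 and 5188. Rescaled counts of smaller groups, given below, stand beside these. Where either scaling turned the direction of a called change, this is stated with the member.

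**Figure D1:**
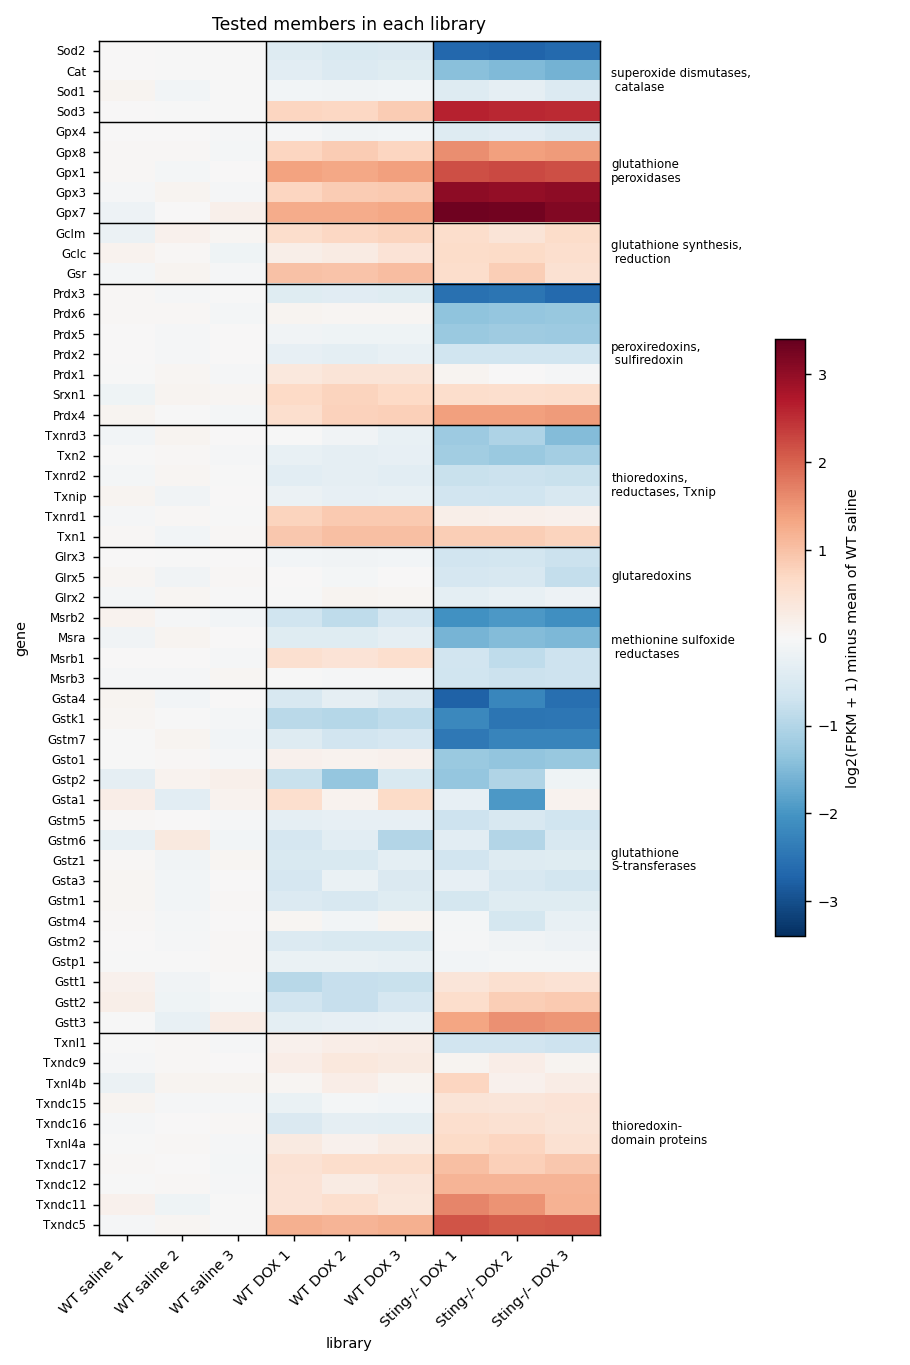
Log2 change of each of the 59 tested members from its mean in the saline libraries, on the log2(FPKM + 1) scale, with genes in rows by role and the 9 libraries in columns. Libraries of a group look alike, Sod2, Prdx3, Gsta4 and Gstk1 are lowest in the Sting-/- DOX libraries, and Gpx3, Gpx7 and Sod3 are highest there.

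All summed levels given here are of FPKM as deposited, without rescaling. Under median-ratio scaling the median log2 change of the members went from -0.08 to -0.33 in WT DOX against saline. In Sting-/- DOX against saline it went from -0.40 to -0.91. All 64 members together were at 5538 ± 87.7 FPKM in saline, 5521 ± 56.3 in WT DOX and 5396 ± 48.0 in Sting-/- DOX hearts (SD, n = 3 each), which is 1.0%, 0.975% and 0.998% of the sum over all genes. Within this sum the make-up differed: the 5 glutathione peroxidases went from 1108 ± 22.5 to 1322 ± 17.6 and 2264 ± 21.2 FPKM over the 3 groups, and the 21 glutathione S-transferases went from 1116 ± 20.2 to 875.9 ± 10.3 and 715.5 ± 15.1 FPKM.

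Of the 4 superoxide dismutase and catalase genes, the mitochondrial and peroxisomal enzymes fell and the extracellular one rose. Sod2, the manganese enzyme of the mitochondrial matrix, was at 213.5, 206.22 and 209.4 FPKM in saline, 155.26, 146.18 and 148.47 in WT DOX, and 31.98, 30.75 and 32.95 in Sting-/- DOX hearts. The 3 groups did not overlap and each step was downward. Its log2 change was -0.48 in WT DOX against saline (SE 0.039, limma adjusted p = 4.73e-07) and -2.2 in Sting-/- DOX against WT DOX (SE 0.039, limma adjusted p = 2.4e-13). Sod3, the secreted copper-zinc enzyme bound to the extracellular matrix, went the other way, at 25.21, 24.77 and 24.94 FPKM in saline, 42.17, 41.6 and 46.64 in WT DOX, and 156.93, 152.16 and 149.67 in Sting-/- DOX hearts. Its groups did not overlap either, and its log2 changes were 0.77 (limma adjusted p = 3.23e-08) and 1.79 (limma adjusted p = 5.19e-12).

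Sod1, the cytosolic copper-zinc enzyme, was at 471.11, 414.05 and 437.52 FPKM in saline, 413.11, 406.0 and 415.81 in WT DOX, and 327.02, 353.33 and 321.53 in Sting-/- DOX hearts. Its saline and WT DOX ranges overlapped (log2 change -0.10, limma adjusted p = 0.102), and it was lower in Sting-/- DOX than in WT DOX with a log2 change of -0.30 (limma adjusted p = 0.000105), a difference that was gone with quantile normalization (0.0011). The first of these 2 values came to pass the threshold, as a fall, under median-ratio scaling and quantile normalization. Pseudogenes share 23.1% of the 50-base stretches of its transcript, so its level is uncertain. Cat, the peroxisomal catalase, was at 120.54, 119.07 and 119.47 FPKM in saline, 93.3, 86.56 and 89.04 in WT DOX, and 44.37, 41.45 and 38.91 in Sting-/- DOX hearts. It fell at each step without overlap, with log2 changes of -0.41 (limma adjusted p = 1.18e-05) and -1.09 (limma adjusted p = 6.58e-10).

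The glutathione peroxidases rose, with 4 of the 5 genes higher in each of the 3 comparisons. Gpx1, the cytosolic and most widely expressed selenium enzyme of the family, was at 75.22, 70.37 and 74.52 FPKM in saline, 190.81, 184.87 and 194.48 in WT DOX, and 340.58, 348.06 and 339.05 in Sting-/- DOX hearts. Every WT DOX library was above every saline library, and every Sting-/- DOX library above both. Its log2 change was 1.36 in WT DOX against saline (SE 0.037, limma adjusted p = 3.56e-11), the largest rise among the members on this scale, and 0.85 in Sting-/- DOX against WT DOX (limma adjusted p = 5.43e-10).

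Gpx3, the peroxidase secreted into plasma and tissue fluid, was at 133.2, 146.67 and 133.44 FPKM in saline, 229.39, 249.5 and 256.36 in WT DOX, and 1141.51, 1099.37 and 1139.5 in Sting-/- DOX hearts. The step between the drug-treated groups (log2 change 2.2, SE 0.049, limma adjusted p = 1.45e-12) was larger than that between the WT groups (0.83, limma adjusted p = 2.93e-08), and the difference of these steps was not tested. It was the highest of the 64 members in Sting-/- DOX hearts. Gpx7 and Gpx8, which act in the endoplasmic reticulum on peroxide from disulfide formation, showed the same order of groups. Gpx7 was at 5.52, 6.45 and 7.27 FPKM in saline, 16.84, 16.77 and 17.21 in WT DOX, and 71.58, 70.42 and 64.64 in Sting-/- DOX hearts, and Gpx8 was at 32.05 ± 1.4, 55.75 ± 3.15 and 90.84 ± 5.55 FPKM over the same groups (mean ± SD, n = 3 each). None of the ranges of these 2 genes overlapped. As a ratio of mean FPKM, WT DOX over saline was 2.64 for Gpx7 and 2.59 for Gpx1.

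Gpx4, which reduces lipid peroxides in membranes, was the exception. It was at 873.85, 865.02 and 836.41 FPKM in saline, 840.97, 791.23 and 810.32 in WT DOX, and 636.22, 654.62 and 613.44 in Sting-/- DOX hearts. Its saline and WT DOX ranges overlapped (log2 change -0.076, limma adjusted p = 0.0823), and it was lower in Sting-/- DOX hearts (log2 change -0.36 against WT DOX, limma adjusted p = 1.51e-06). A pseudogene shares 61.7% of the 50-base stretches of its transcript, so its level is uncertain. The first of these differences passed, as a fall, under median-ratio scaling and quantile normalization.

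The 3 genes for making and recycling glutathione were higher in WT DOX than in saline. Gsr, glutathione reductase, was at 7.86, 8.9 and 7.87 FPKM in saline, 17.33, 16.99 and 17.86 in WT DOX, and 13.01, 15.32 and 12.08 in Sting-/- DOX hearts. It was highest in WT DOX, with log2 changes of 1.0 against saline (limma adjusted p = 3.43e-07) and -0.35 in Sting-/- DOX against WT DOX (limma adjusted p = 0.0012). Gclm, the modifier subunit of glutamate-cysteine ligase, the rate-limiting step of glutathione synthesis, was at 8.58, 11.11 and 10.46 FPKM in saline, 15.67, 16.76 and 17.47 in WT DOX, and 15.59, 13.9 and 15.84 in Sting-/- DOX hearts. Both drug-treated groups lay above saline, and they overlapped with each other (-0.13, limma adjusted p = 0.168). Between the drug-treated groups Gclm passed, as a fall, under median-ratio scaling (-0.41, limma adjusted p = 0.00072) and quantile normalization (-0.36, limma adjusted p = 0.00172). Gclc, the catalytic subunit, was at 6.93, 6.51 and 5.71 FPKM in saline, 7.52, 7.93 and 9.15 in WT DOX, and 10.29, 10.51 and 9.97 in Sting-/- DOX hearts. Its groups rose in order, by 0.32 (limma adjusted p = 0.0037) and 0.29 (limma adjusted p = 0.00414). In Sting-/- DOX against saline these 3 genes were higher by log2 changes of 0.55 to 0.65, and under median-ratio scaling or quantile normalization none of them passed. Both changes of Gclc between neighbouring groups were also lost under these scalings.

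The peroxiredoxins reduce peroxides with electrons from thioredoxin, and of these the mitochondrial Prdx3 fell and Prdx4 of the endoplasmic reticulum rose. Prdx3, the mitochondrial matrix enzyme, was at 238.65, 228.01 and 230.81 FPKM in saline, 175.54, 177.37 and 173.02 in WT DOX, and 39.51, 41.0 and 36.28 in Sting-/- DOX hearts. Its log2 changes were -0.41 (SE 0.045, limma adjusted p = 6.89e-06) in WT DOX against saline and -2.14 (SE 0.045, limma adjusted p = 8.25e-13) in Sting-/- DOX against WT DOX. Prdx4, the member of the endoplasmic reticulum, was at 23.43, 21.55 and 20.81 FPKM in saline, 32.78, 38.14 and 39.46 in WT DOX, and 59.25, 59.52 and 61.06 in Sting-/- DOX hearts. It rose at both steps, by 0.72 (limma adjusted p = 1.45e-06) and 0.69 (limma adjusted p = 8.74e-07).

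Prdx1, the main cytosolic peroxiredoxin, was at 234.26, 246.01 and 227.6 FPKM in saline, 302.26, 321.19 and 319.54 in WT DOX, and 253.84, 237.22 and 229.19 in Sting-/- DOX hearts. WT DOX stood above saline and Sting-/- DOX, which overlapped. Its log2 change was 0.41 in WT DOX against saline (limma adjusted p = 7.24e-06) and 0.024 in Sting-/- DOX against saline (limma adjusted p = 0.621), the latter turning to -0.52 under median-ratio scaling and passing as a rise of 0.16 with quantile normalization. The difference of Prdx1 between Sting-/- DOX and WT DOX was lost with quantile normalization (-0.05, limma adjusted p = 0.326). Prdx2, a cytosolic enzyme that is abundant in red cells, was at 245.5 ± 5.43, 200.3 ± 5.1 and 153.7 ± 0.756 FPKM over saline, WT DOX and Sting-/- DOX (mean ± SD, n = 3 each), and its 3 ranges were separate. Prdx5, found in mitochondria, peroxisomes and cytosol, was at 311.43, 299.27 and 306.94 FPKM in saline, 281.26, 275.51 and 274.85 in WT DOX, and 127.21, 131.98 and 128.77 in Sting-/- DOX hearts, lower at each step. Exons of Trmt112 on the other strand cover 409 bases of Prdx5, and whether the counting used strand is not given in the sources used here.

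Prdx6, which acts with glutathione and not thioredoxin, was at 132.64, 134.47 and 123.56 FPKM in saline, 138.0, 137.38 and 135.76 in WT DOX, and 49.89, 51.59 and 52.4 in Sting-/- DOX hearts. Its log2 change in WT DOX against saline was 0.074 (limma adjusted p = 0.123) and turned to -0.18 under median-ratio scaling, while in Sting-/- DOX against WT DOX it was -1.4 (limma adjusted p = 1.22e-11). Srxn1, sulfiredoxin, which repairs overoxidised peroxiredoxins, was at 7.69, 9.29 and 9.17 FPKM in saline, 14.52, 15.46 and 14.4 in WT DOX, and 13.72, 13.27 and 13.78 in Sting-/- DOX hearts. Both drug-treated groups lay above saline, with log2 changes of 0.70 (limma adjusted p = 1.92e-06) and 0.59 (limma adjusted p = 3.37e-06), and the second of these was lost under median-ratio scaling and quantile normalization. Under the same scalings Srxn1 passed as lower in Sting-/- DOX than in WT DOX (-0.39 and -0.35). Over this group of 7 genes, 3 were higher and 3 lower in WT DOX against saline, and 1 was higher and 5 lower in Sting-/- DOX against WT DOX.

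The thioredoxin genes divided between a cytosolic pair that rose with doxorubicin in WT hearts and a mitochondrial pair that fell. Txn1, cytosolic thioredoxin, was at 76.61, 69.61 and 76.8 FPKM in saline, 139.87, 152.62 and 152.85 in WT DOX, and 133.55, 132.23 and 125.58 in Sting-/- DOX hearts. Its log2 change in WT DOX against saline was 0.99 (SE 0.05, limma adjusted p = 7.25e-09). It was -0.18 in Sting-/- DOX against WT DOX (limma adjusted p = 0.0048), a call that was lost with quantile normalization (-0.11, limma adjusted p = 0.0576) and TPM scaling (-0.12, limma adjusted p = 0.0505). Txnrd1, its selenium-containing reductase, was at 14.91, 15.91 and 15.38 FPKM in saline, 26.72, 29.61 and 29.14 in WT DOX, and 17.68, 17.63 and 17.12 in Sting-/- DOX hearts. Its log2 changes were 0.85 in WT DOX against saline (limma adjusted p = 3.02e-08), -0.67 in Sting-/- DOX against WT DOX (limma adjusted p = 8.84e-08) and 0.17 in Sting-/- DOX against saline (limma adjusted p = 0.00657), the last turning to -0.34 under median-ratio scaling and -0.25 with quantile normalization.

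Txn2, the mitochondrial thioredoxin, was at 231.89, 238.32 and 225.75 FPKM in saline, 193.76, 189.17 and 189.49 in WT DOX, and 102.31, 96.57 and 102.95 in Sting-/- DOX hearts. Txnrd2, the mitochondrial reductase, was at 18.77, 20.45 and 19.38 FPKM in saline, 15.13, 15.64 and 14.92 in WT DOX, and 11.08, 11.39 and 11.13 in Sting-/- DOX hearts. Both fell at both steps with no overlap, with log2 changes of -0.28 and -0.92 for Txn2 and of -0.34 and -0.41 for Txnrd2 (largest limma adjusted p of the 4 values = 6.05e-05). Txnip, which binds and inhibits thioredoxin, was at 227.37, 196.67 and 215.56 FPKM in saline, 183.98, 176.83 and 178.81 in WT DOX, and 135.95, 132.43 and 144.43 in Sting-/- DOX hearts and likewise fell at both steps (-0.24, limma adjusted p = 0.00144, and -0.38, limma adjusted p = 2.15e-05). Exons of Gm15441 on the other strand cover 606 bases of Txnip. Txnrd3, a reductase best known from testis, was at 7.52 ± 0.49, 6.793 ± 0.658 and 2.61 ± 0.52 FPKM (mean ± SD, n = 3 each) and was lower in Sting-/- DOX hearts than in either WT group.

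**Figure D2:**
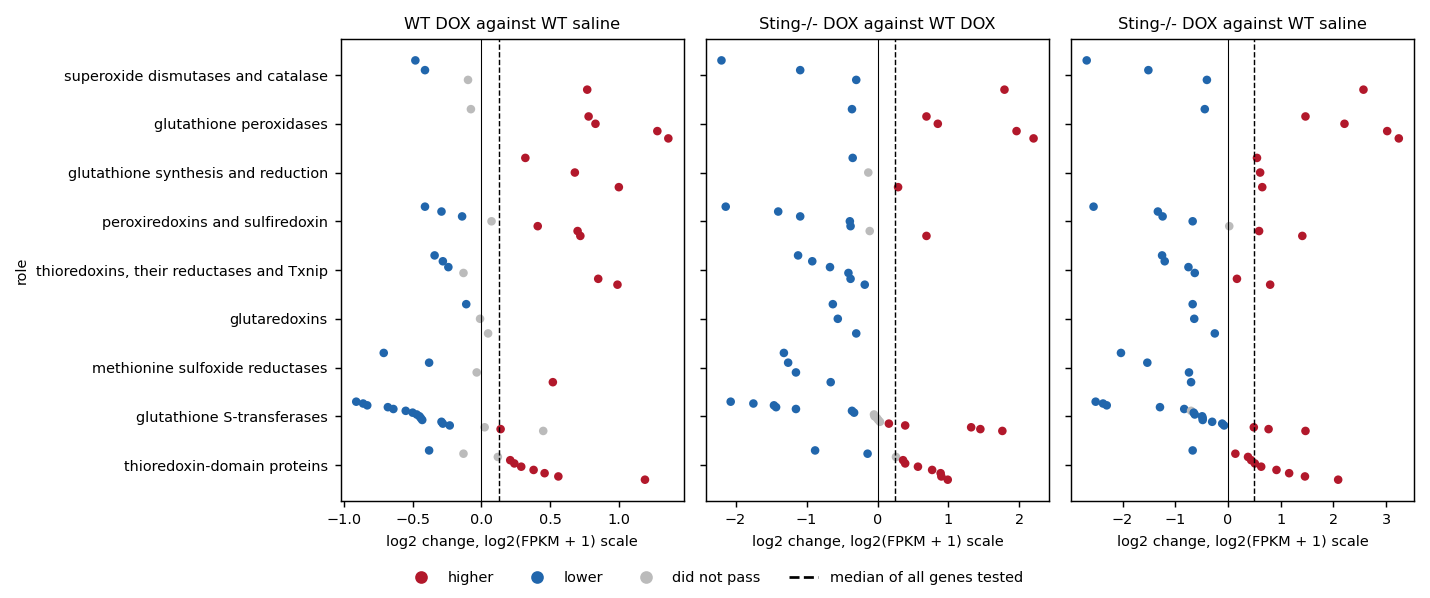
Log2 change of each tested member in the 3 comparisons, with members in rows by role, red and blue points for those called higher and lower, grey points for those that did not pass, and a dashed line at the median of all genes tested. Glutathione peroxidases lie above 0 except Gpx4, methionine sulfoxide reductases lie below 0 in both comparisons with the Sting-/- DOX group, and glutathione S-transferases spread to both sides.

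The glutaredoxins, a glutathione-binding family whose members reduce disulfides or carry iron-sulfur clusters, were all 3 lower in Sting-/- DOX than in WT DOX hearts. Glrx2, a mitochondrial member, was at 45.29 ± 2.25, 46.86 ± 1.54 and 37.81 ± 2.18 FPKM over the 3 groups, Glrx3 at 50.67 ± 0.611, 47.02 ± 0.416 and 31.48 ± 1.27 and the mitochondrial Glrx5 at 64.96 ± 4.35, 64.46 ± 2.28 and 41.35 ± 4.04 (mean ± SD, n = 3 each). In WT DOX against saline their log2 changes were 0.049, -0.11 and -0.0093, of which that of Glrx3 passed (limma adjusted p = 0.0359) and that of Glrx2 turned to -0.20 under median-ratio scaling. That of Glrx5 passed, as a fall, under median-ratio scaling (-0.26, limma adjusted p = 0.00681) and quantile normalization (-0.20, limma adjusted p = 0.0298). The call of Glrx3 was lost when any 1 of the 6 WT libraries was left out (limma adjusted p between 0.05 and 0.0973). In Sting-/- DOX against WT DOX they were -0.30, -0.56 and -0.63 (largest limma adjusted p = 0.00018). A pseudogene shares 20.4% of the 50-base stretches of the Glrx3 transcript, so its level is uncertain.

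Methionine sulfoxide reductases, which repair oxidised methionine, were all 4 lower in Sting-/- DOX hearts than in either WT group. Msrb1, the selenium-containing enzyme of cytosol and nucleus, was at 160.84, 159.88 and 153.88 FPKM in saline, 230.3, 217.51 and 233.83 in WT DOX, and 101.02, 86.82 and 96.18 in Sting-/- DOX hearts. It was raised in WT DOX (log2 change 0.52, limma adjusted p = 3.41e-06) and lowest in Sting-/- DOX (-1.26, limma adjusted p = 3.81e-10). Msrb2, the mitochondrial enzyme, was at 71.26, 63.17 and 61.45 FPKM in saline, 40.21, 35.04 and 43.3 in WT DOX, and 14.8, 16.02 and 14.71 in Sting-/- DOX hearts, and Msra, found in mitochondria and cytosol, was at 36.9, 42.77 and 40.17 FPKM in saline, 29.51, 29.85 and 31.92 in WT DOX, and 12.58, 13.75 and 13.12 in Sting-/- DOX hearts. Both fell at both steps, with log2 changes of -0.71 and -1.32 for Msrb2 and of -0.38 and -1.15 for Msra (largest limma adjusted p of the 4 values = 0.000128). Msrb3, a member of the endoplasmic reticulum, had overlapping ranges in saline and WT DOX and was at 47.79 ± 2.08, 46.64 ± 0.577 and 29.08 ± 0.512 FPKM over the 3 groups (mean ± SD, n = 3 each; -0.66 in Sting-/- DOX against WT DOX, limma adjusted p = 1.7e-08). In WT DOX against saline Msrb3 passed, as a fall, under median-ratio scaling (-0.28, limma adjusted p = 8.87e-05) and quantile normalization (-0.21, limma adjusted p = 0.000953).

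The glutathione S-transferases couple glutathione to reactive compounds, and most fell in WT DOX. In WT DOX against saline 14 of the 17 tested were lower and 1 higher (median -0.45), while 5 were higher and 7 lower in Sting-/- DOX against WT DOX, where the median was -0.04. In the second comparison 4 were higher and 11 lower under median-ratio scaling (median -0.30), 5 and 9 with quantile normalization (median -0.25), and the median turned to 0.02 with TPM scaling. Gstk1, the kappa-class enzyme of mitochondria and peroxisomes, was at 122.85, 116.25 and 111.69 FPKM in saline, 61.93, 59.44 and 64.04 in WT DOX, and 24.94, 20.05 and 20.56 in Sting-/- DOX hearts. On the log2(FPKM + 1) scale it had the largest fall of the members in WT DOX (log2 change -0.91, SE 0.072, limma adjusted p = 3.73e-07) and fell further in Sting-/- DOX (-1.46, limma adjusted p = 1.62e-09).

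Gsta4, which conjugates the lipid peroxidation product 4-hydroxynonenal, was at 95.12, 84.62 and 89.81 FPKM in saline, 61.25, 72.73 and 64.07 in WT DOX, and 12.6, 18.37 and 14.24 in Sting-/- DOX hearts. It fell at both steps, with log2 changes of -0.44 (limma adjusted p = 0.00348) and -2.07 (limma adjusted p = 2.97e-09). Gstm7, a mu-class enzyme, was at 35.27, 37.43 and 33.31 FPKM in saline, 25.67, 22.21 and 23.47 in WT DOX, and 5.76, 6.7 and 6.62 in Sting-/- DOX hearts, with the same order of groups. Gsto1, the omega-class enzyme with dehydroascorbate reductase activity, was at 167.85, 174.46 and 165.03 FPKM in saline, 187.97, 183.65 and 187.07 in WT DOX, and 69.93, 66.07 and 69.26 in Sting-/- DOX hearts. It was the 1 transferase higher in WT DOX (0.14, limma adjusted p = 0.0054), a change that turned to -0.11 under median-ratio scaling and was lost with quantile normalization (0.021), and it was lower in Sting-/- DOX against WT DOX (-1.43, limma adjusted p = 4.67e-12).

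The theta class moved in the opposite direction to Gsta4 and Gstk1 between the drug-treated groups. Gstt1 was at 23.56, 19.48 and 21.01 FPKM in saline, 10.67, 11.9 and 12.14 in WT DOX, and 28.86, 31.56 and 30.52 in Sting-/- DOX hearts, lowest in WT DOX. Gstt1 had a log2 change of -0.83 in WT DOX against saline (limma adjusted p = 7.78e-07) and 1.32 in Sting-/- DOX against WT DOX (limma adjusted p = 3.92e-09), and its rise of 0.49 against saline turned to -0.04 under median-ratio scaling. Gstt2 was at 6.73, 5.1 and 5.37 FPKM in saline, 3.27, 2.86 and 3.47 in WT DOX, and 9.12, 10.88 and 11.42 in Sting-/- DOX hearts and Gstt3 at 2.32, 1.8 and 3.0 FPKM in saline, 1.66, 1.76 and 1.79 in WT DOX, and 7.51, 8.8 and 8.45 in Sting-/- DOX hearts. Both had the same order of groups, with log2 changes of 1.45 and 1.76 in Sting-/- DOX against WT DOX (largest limma adjusted p = 5.8e-08). The call of Gstt3 in WT DOX against saline (limma adjusted p = 0.0414) was lost without saline replicate 1 or 3, any WT DOX replicate or Sting-/- DOX replicate 3 (limma adjusted p between 0.0536 and 0.185). Gm20441 shares exons with Gstt3 on the same strand, so its level is uncertain.

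Gstp1, the pi-class enzyme and the highest of the transferases that the naming rule takes, was at 225.68, 225.49 and 233.58 FPKM in saline, 196.14, 195.05 and 190.79 in WT DOX, and 214.32, 217.53 and 218.34 in Sting-/- DOX hearts. Its log2 change was -0.23 in WT DOX against saline (limma adjusted p = 3.83e-05) and 0.16 in Sting-/- DOX against WT DOX (limma adjusted p = 0.000499), the second turning to -0.13 under median-ratio scaling. The change of Gstp1 in Sting-/- DOX against saline (-0.074) turned to 0.11 with quantile normalization. It shares 62.3% of its 50-base stretches with Gstp2, so the split between these copies is uncertain. Gstp2 itself was at 17.05 ± 3.02, 9.107 ± 2.73 and 9.697 ± 4.7 FPKM over the 3 groups, and Gstm6 at 1.83 ± 0.618, 0.82 ± 0.387 and 0.8367 ± 0.402 (mean ± SD, n = 3 each). As a ratio of mean FPKM, WT DOX over saline was 0.448 for Gstm6, below the 0.529 of Gstk1. Both Gstp2 and Gstm6 fell with doxorubicin in WT hearts (limma adjusted p = 0.0137 and 0.0156), and without WT DOX replicate 2 for Gstp2 or replicate 3 for Gstm6 the call was lost (limma adjusted p = 0.064 and 0.0735). Gstm6 averaged below 1 FPKM in both drug-treated groups and passed the filter only through its saline values.

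Gstm1, at 204.81, 184.58 and 200.77 FPKM in saline, 143.42, 134.95 and 146.85 in WT DOX, and 128.95, 148.02 and 146.41 in Sting-/- DOX hearts, fell in WT DOX and did not pass the test between the drug-treated groups (-0.47, limma adjusted p = 2.05e-05; -0.0081 in Sting-/- DOX against WT DOX, limma adjusted p = 0.902). Pseudogenes and other family members share 23.1% of its 50-base stretches. Gstz1, which also degrades tyrosine by-products, was at 30.37 ± 2.11, 21.93 ± 1.53 and 21.3 ± 2.04 FPKM (mean ± SD, n = 3 each), with the same order of calls. Both passed as falls in Sting-/- DOX against WT DOX under median-ratio scaling (-0.30, limma adjusted p = 0.000571 for Gstm1; -0.32, limma adjusted p = 0.00187 for Gstz1), and with quantile normalization Gstz1 passed (-0.23, limma adjusted p = 0.0139) and Gstm1 turned to 0.088 without passing. The tested transferases not named by a value here were Gsta1, Gsta3, Gstm2, Gstm4 and Gstm5, with log2 changes between -0.50 and 0.45 in WT DOX against saline and between -1.15 and 0.39 in Sting-/- DOX against WT DOX. Gsta1 shares 89.7% of its 50-base stretches with other genes.

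Some of the proteins with a thioredoxin domain fold and sort disulfide bonds in the secretory pathway, and others act in the cytosol or nucleus. In WT DOX against saline 7 of the 10 tested were higher and 1 lower, in Sting-/- DOX against WT DOX 7 were higher and 2 lower, and under median-ratio scaling these became 3 and 2 and then 5 and 2. Txndc5, a protein disulfide isomerase of the endoplasmic reticulum, was at 18.54, 20.27 and 18.93 FPKM in saline, 46.15, 43.69 and 45.78 in WT DOX, and 87.75, 83.83 and 84.49 in Sting-/- DOX hearts. It rose at both steps, by 1.19 (SE 0.045, limma adjusted p = 5.02e-10) and 0.90 (limma adjusted p = 1.84e-09). Txndc11, Txndc12, Txndc17 and Txnl4a also had 3 separate ranges rising in that order. Txndc15, Txndc16, Txndc9, Txnl1 and Txnl4b were the others tested. Under median-ratio scaling the changes of Txnl4a (0.24) and Txnl1 (0.21) in WT DOX against saline turned to -0.01 and -0.04. Those of Txndc15 (0.44), Txndc9 (0.14) and Txnl4b (0.38) in Sting-/- DOX against saline turned to -0.09, -0.39 and -0.07 under median-ratio scaling, and those of Txndc9 and Txnl4b to -0.08 and -0.15 with quantile normalization.

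In 42 of the 59 tested members (71.2%) the ranges of all 3 groups were separate, as in 57.6% of all tested genes. In 15 members, and 12.8% of all genes, the level fell from saline to WT DOX to Sting-/- DOX: Cat, Glrx3, Gsta4, Gstk1, Gstm5, Gstm7, Msra, Msrb2, Prdx2, Prdx3, Prdx5, Sod2, Txn2, Txnip and Txnrd2. In 12, and 29.9% of all genes, it rose in that order, among them Gclc, Gpx1, Gpx3, Gpx7, Gpx8, Prdx4, Sod3 and Txndc5. WT DOX was highest in 8, of which Gsr, Srxn1, Txn1 and Txnrd1 had saline lowest (an order seen in 4.08% of all genes) and Gsto1, Msrb1, Prdx6 and Txnl1 had Sting-/- DOX lowest (3.93%). WT DOX was lowest in 7: the theta-class Gstt1, Gstt2 and Gstt3 with Txndc15 and Txndc16, in which Sting-/- DOX was highest (6.17% of all genes), and Gstm2 and Gstp1, in which saline was (0.721%). These orders are of FPKM as deposited, and the step from saline to WT DOX turned downward under median-ratio scaling in Gsto1, Prdx6, Txnl1 and Txnl4a. Under the same scaling Gstp1 turned downward from WT DOX to Sting-/- DOX (-0.13). From saline to Sting-/- DOX, Txnrd1 (-0.34), Gstt1 (-0.04) and Txndc15 (-0.09) turned downward. With quantile normalization that change turned downward in Txnrd1 (-0.25) and upward in Gstp1 (0.11).

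The members were also grouped by where their proteins act, and these groups were made with the values known, so their counts are a description. Each member was given 1 location. Gstk1, Prdx5 and Msra, found also outside mitochondria, were placed with mitochondria, and Gpx1 and Gsr with the cytosol. The counts depend on this placement. Of the 10 members placed in mitochondria, 8 were lower and 0 higher in WT DOX against saline, and all 10 were lower in both comparisons with Sting-/- DOX, also under median-ratio scaling and quantile normalization. Their median log2 change was -0.36, then -1.12 against WT DOX and -1.38 against saline. Of the 11 members of the secretory pathway or the extracellular space, 8 were higher and 1 lower in WT DOX against saline, and 10 were higher and 1 lower in each of the other comparisons, with medians of 0.72, 0.89 and 1.46. Under median-ratio scaling these counts were 7 and 3, 10 and 1, and 8 and 1, with medians of 0.48, 0.61 and 0.94, and with quantile normalization 7 and 3, 10 and 1, and 9 and 1. The 1 that was lower in Sting-/- DOX was Msrb3, and the 1 lower in WT DOX was Txndc16. The 38 tested members of cytosol, nucleus or peroxisomes showed both directions, with 14 higher and 17 lower in WT DOX against saline and 9 higher and 21 lower in Sting-/- DOX against WT DOX (9 and 22, then 5 and 27, under median-ratio scaling).

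**Figure D3:**
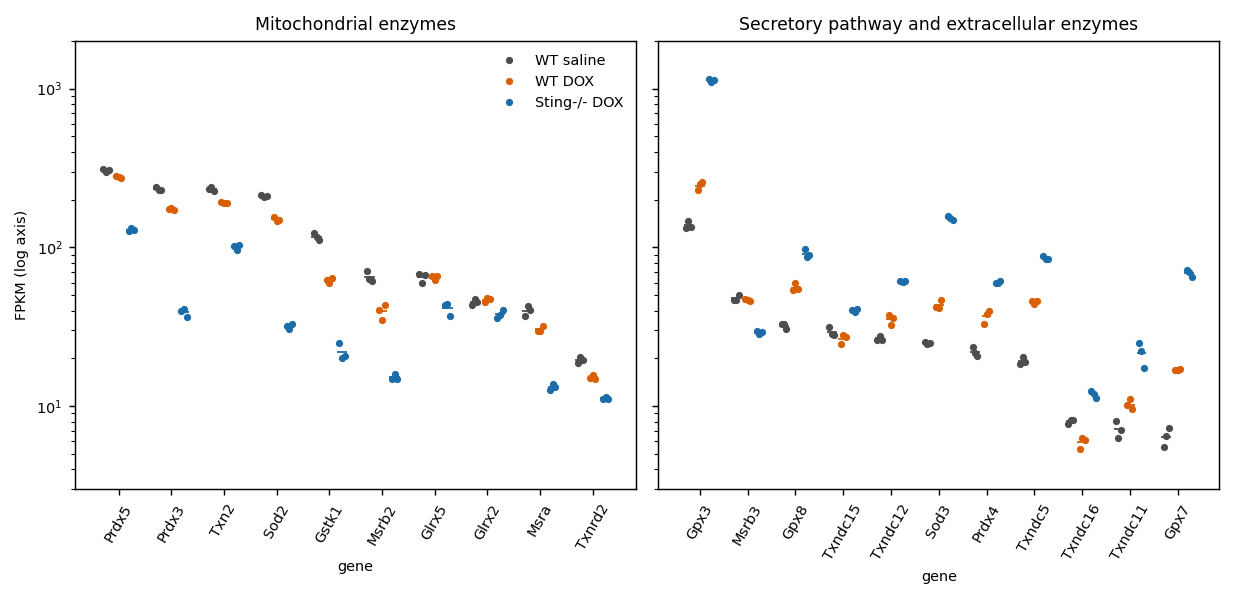
FPKM of single members in each of the 9 libraries on a log axis, in panels by location of the protein, with a short bar at each group's mean. All mitochondrial members but Glrx2 and Glrx5 step down from saline to WT DOX to Sting-/- DOX, and most secretory members step up.

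The summed level of the mitochondrial members was 1332 ± 20.8 FPKM in saline, 1052 ± 12.7 in WT DOX and 441.3 ± 3.46 in Sting-/- DOX hearts (SD, n = 3 each). That of the secretory and extracellular members was 361.4 ± 7.19, 567.9 ± 20.0 and 1748 ± 34.4 FPKM, most of the last from Gpx3. Markers of cell types also differed between the groups, some in the direction of these sums and others not. Cardiomyocyte markers were lower for 15 of 16 genes in WT DOX against saline (12, with 2 higher, under quantile normalization) and for 16 of 16 in both other comparisons, and their summed level in Sting-/- DOX was 0.205 times that in WT DOX, where the mitochondrial members were at 0.419 times. Fibroblast markers were higher for 9 of 12 genes in WT DOX and their sum went from 1137 to 1166 FPKM in saline to 1986 to 2012 in WT DOX hearts and 9716 to 10250 with Sting-/-. Endothelial markers were at 1625 to 1733, 1393 to 1548 and 6750 to 7201 FPKM, macrophage and monocyte markers at 504.7 to 556.7, 1605 to 1770 and 3142 to 3276, and erythroid markers at 2469 to 2565, 1513 to 1655 and 8503 to 9727. Neutrophil markers were highest in WT DOX, at 6.46 to 7.25, 225.2 to 293.8 and 84.74 to 100.3 FPKM. Adipocyte markers were at 1137 to 1240, 964.9 to 1143 and 4738 to 5101 FPKM, mesothelial markers at 4.35 to 6.55, 6.47 to 9.03 and 99.73 to 103.7, smooth muscle and pericyte markers at 1169 to 1218, 1590 to 1612 and 1460 to 1557, and hepatocyte markers at 1.9 to 2.32, 2.65 to 5.28 and 6.68 to 9.02. The sums can hide opposite directions within a list. Of 7 tested adipocyte markers, 5 were higher and 2 lower in WT DOX against saline, and 3 and 2 in Sting-/- DOX against WT DOX. Fabp4 stands in both the adipocyte and the endothelial list. For 10 smooth muscle and pericyte markers these counts were 4 and 5, then 7 and 2. For 12 macrophage and monocyte markers they were 11 and 1, then 8 and 4. Of the markers in these lists, Serpina1a of the hepatocyte list was at 0 in all Sting-/- DOX libraries and no other was at 0 throughout a group, and their part in the changes of the members was not tested.

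**Figure D4:**
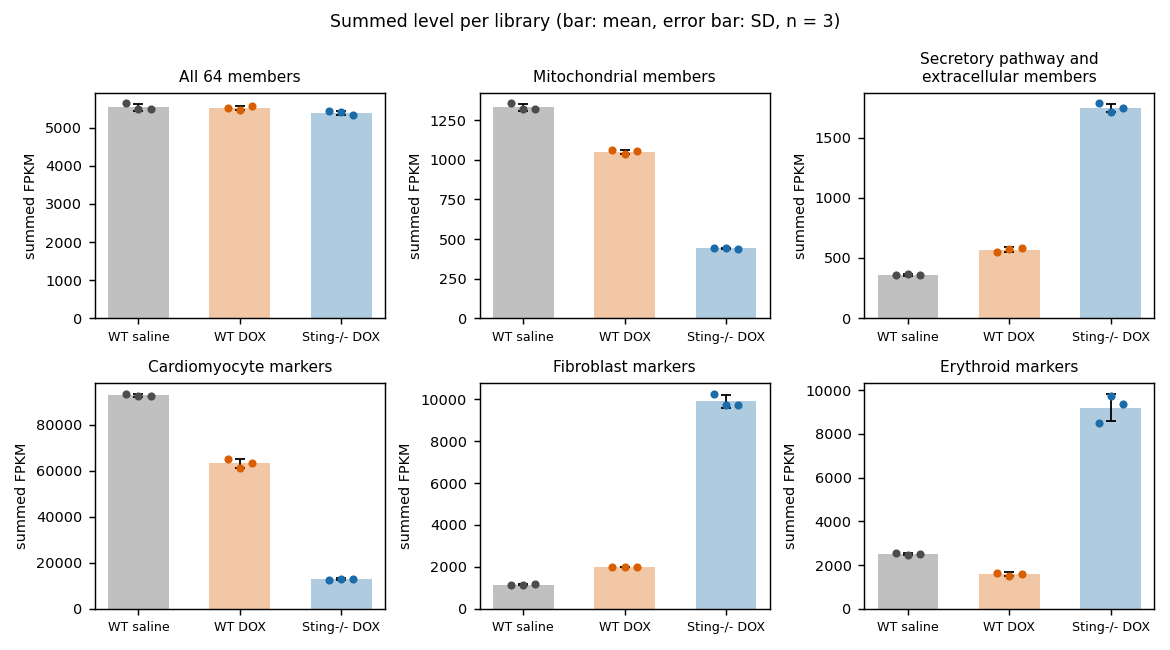
Summed FPKM of the members by location beside the summed FPKM of cell type markers, each library a point, bars and error bars the mean and SD (n = 3), and each axis starting at 0. Mitochondrial members and cardiomyocyte markers both fall over the 3 groups, and secretory members and fibroblast markers both rise. Erythroid markers are lowest in WT DOX and highest in Sting-/- DOX.

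Genes around the members were taken from lists of related genes. Their counts without rescaling stand beside the 45.3% higher and 21.5% lower of all genes in WT DOX against saline and the 54.1% and 29.7% in Sting-/- DOX against WT DOX. Their rescaled counts stand beside the counts of all genes under the same scaling, given earlier. Of 23 tested NRF2 regulators and targets that are not members, 16 were higher and 4 lower in WT DOX against saline, and 12 higher and 6 lower in Sting-/- DOX against WT DOX, where the median of 0.17 turned to -0.12 under median-ratio scaling. The counts were 8 and 7, then 6 and 11, under median-ratio scaling, and 8 and 6, then 9 and 11, with quantile normalization. Hmox1, heme oxygenase, was at 6.52, 7.47 and 7.4 FPKM in saline, 147.97, 149.01 and 151.56 in WT DOX, and 69.15, 64.34 and 66.18 in Sting-/- DOX hearts. The log2 change of Hmox1 was 4.21 in WT DOX against saline (limma adjusted p = 1.4e-13) and -1.16 in Sting-/- DOX against WT DOX (limma adjusted p = 6.13e-10). Nqo1, a quinone reductase, was at 36.59, 38.01 and 38.11 FPKM in saline, 49.65, 50.62 and 49.16 in WT DOX, and 11.16, 7.73 and 9.59 in Sting-/- DOX hearts, lowest in Sting-/- DOX. Ftl1, the ferritin light chain, rose at both steps and was at 313.8 ± 7.36, 1187 ± 34.9 and 3240 ± 48.5 FPKM (mean ± SD, n = 3 each). Ephx1, Trib3 and Blvrb were also higher in Sting-/- DOX than in WT DOX, by log2 changes of 1.56, 1.0 and 0.96. Nfe2l2 itself, named after its values were seen, was at 37.15 ± 1.7, 44.39 ± 0.822 and 50.94 ± 1.52 FPKM, and its change of 0.45 in Sting-/- DOX against saline turned to -0.09 under median-ratio scaling.

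NADPH feeds both the glutathione and the thioredoxin reductases, and the genes of its sources moved in both directions. They were not grouped by location. Nnt, the transhydrogenase of the inner mitochondrial membrane, was at 330.39, 300.3 and 318.93 FPKM in saline, 80.52, 75.45 and 79.65 in WT DOX, and 14.02, 14.17 and 14.19 in Sting-/- DOX hearts. Idh2, the mitochondrial NADP-dependent isocitrate dehydrogenase, was at 1036.96, 942.56 and 991.94 FPKM in saline, 657.17, 652.09 and 630.69 in WT DOX, and 107.38, 106.12 and 116.54 in Sting-/- DOX hearts. Both fell at each step, with log2 changes of -2.39 and -2.55 in Sting-/- DOX against WT DOX (largest limma adjusted p = 2.79e-13). In WT DOX against saline these changes were -2.0 for Nnt and -0.61 for Idh2. The cause of the falls was not tested. G6pdx, the first enzyme of the pentose phosphate pathway, was at 4.35, 5.02 and 4.47 FPKM in saline, 15.01, 17.38 and 17.12 in WT DOX, and 23.48, 19.35 and 23.53 in Sting-/- DOX hearts, and rose at both steps (1.64, limma adjusted p = 7.49e-09, and 0.40, limma adjusted p = 0.000813). Pgd and Tkt of the same pathway were higher in WT DOX against saline by 1.43 and 1.34. Over the 14 genes, 6 were higher and 6 lower in WT DOX against saline, and 6 higher and 5 lower in Sting-/- DOX against WT DOX (5 and 7, then 5 and 8, under median-ratio scaling).

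Of 16 genes that produce superoxide or peroxide, 10 were higher and 2 lower in WT DOX against saline and 11 higher and 3 lower in Sting-/- DOX against WT DOX (9 and 3, then 7 and 5, under median-ratio scaling). Ncf1, a phagocyte oxidase subunit, was at 3.66, 3.28 and 3.5 FPKM in saline, 21.42, 21.24 and 21.81 in WT DOX, and 22.87, 21.57 and 22.86 in Sting-/- DOX hearts. Both drug-treated groups lay above saline and overlapped with each other. Cyba, the shared membrane subunit, was at 37.7 ± 1.84, 109.7 ± 7.28 and 250.4 ± 5.45 FPKM over the 3 groups (mean ± SD, n = 3 each) and rose at both steps. Nox4, an oxidase that releases mainly peroxide, was at 0.43, 0.61 and 0.5 FPKM in saline, 0.77, 0.92 and 1.14 in WT DOX, and 9.54, 10.3 and 8.49 in Sting-/- DOX hearts. It was highest in Sting-/- DOX hearts (log2 change 2.43 against WT DOX). Its WT values lay near or below the filter of 1 FPKM, which it reached only through the Sting-/- DOX libraries, so this is a description. Maob, which makes peroxide at the outer mitochondrial membrane, was lower in Sting-/- DOX against WT DOX, with a log2 change of -1.52.

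Glrx, the cytosolic glutaredoxin whose symbol has nothing after the prefix and which is therefore no member, was at 36.55, 38.88 and 36.19 FPKM in saline, 54.88, 54.0 and 56.28 in WT DOX, and 20.16, 17.91 and 16.41 in Sting-/- DOX hearts. It was highest in WT DOX and lowest in Sting-/- DOX, with log2 changes of 0.55 (limma adjusted p = 1.01e-05) and -1.55 (limma adjusted p = 3.14e-10). Over the 18 tested genes of glutathione synthesis, turnover and transport that include it, 7 were higher and 5 lower in WT DOX against saline and 3 higher and 9 lower in Sting-/- DOX against WT DOX (5 and 9, then 3 and 14, under median-ratio scaling). Mgst3, a membrane-bound glutathione transferase and peroxidase, was at 311.42, 316.76 and 319.67 FPKM in saline, 231.71, 217.77 and 226.42 in WT DOX, and 44.4, 45.38 and 49.39 in Sting-/- DOX hearts, falling at both steps without overlap. Of the 10 microsomal transferases and relatives, 8 were higher and 1, Mgst3, was lower in WT DOX against saline (6 and 1 under median-ratio scaling). The largest of these rises were in relatives: Alox5ap (2.25), Clic1 (1.88), Hpgds (0.85) and Eef1g (0.68). In Sting-/- DOX against WT DOX 4 were higher and 5 lower, with Ltc4s at 1.37, Ptges at 1.02, Ptgds at -2.38 and Mgst1 at -0.48.

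Of 20 genes for other selenoproteins and their synthesis, 12 were higher and 1 lower in WT DOX against saline and 16 higher and 4 lower in Sting-/- DOX against WT DOX. Under median-ratio scaling these were 6 and 5 and then 12 and 4, and with quantile normalization 7 and 5 and then 13 and 4. The 1 lower in WT DOX was Selenop, the plasma carrier of selenium, at 201.62, 197.43 and 203.57 FPKM in saline, 161.72, 167.46 and 164.56 in WT DOX, and 403.87, 390.89 and 389.39 in Sting-/- DOX hearts, which was highest in Sting-/- DOX. Of 15 protein disulfide isomerases and relatives outside the rule, 12 were higher and 0 lower in WT DOX against saline (11 and 3 under median-ratio scaling), with Pdia4 at 9.73 ± 0.197, 26.88 ± 1.1 and 35.32 ± 0.178 FPKM over the groups (mean ± SD, n = 3 each). In Sting-/- DOX against WT DOX 11 of these isomerases and relatives were higher and 4 lower, from Nxn at 2.08 to Tmx2 at -1.55. Metallothioneins bind metals and scavenge radicals. Mt2 was at 33.55, 49.78 and 38.99 FPKM in saline, 393.54, 443.91 and 399.12 in WT DOX, and 109.26, 91.65 and 88.97 in Sting-/- DOX hearts. The log2 change of Mt2 was 3.32 in WT DOX against saline (limma adjusted p = 3.31e-10) and -2.09 in Sting-/- DOX against WT DOX (limma adjusted p = 6.49e-09), and Mt1 was at 388.6 ± 33.3, 813.9 ± 32.7 and 342.0 ± 15.3 FPKM (mean ± SD, n = 3 each), with WT DOX again highest.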

How the data were processed

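RNA of 9 mouse heart libraries was sequenced, in 3 groups of 3 taken from the sample titles. The authors deposited 1 table of FPKM values per library. The submitters' processing notes list RSEM 1.2.12, HISAT2 2.0.4 and Bowtie2 2.2.5, and GRCm39 as the build, without saying what each did. Gene IDs were named through a RefSeq table of GRCm38.p6 (16825 matched, 48 did not). Of the 70 protein-coding genes that the rule takes in that table, 64 were in the files, and the others were not analysed here.

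limma 3.58.1 in R 4.3.3 was run on log2(FPKM + 1) (trended variance, 1 fit of 9 libraries, 6 residual degrees of freedom, two-sided, Benjamini-Hochberg over the 12485 genes whose mean reached 1 FPKM), after a test on simulated data. With 3 against 3, the smallest p of an exact permutation test is 0.1. No counts could be recovered, so no count model was run. Promoters are RefSeq sequences of GRCm38.p6. Shared 50-base stretches and exon overlaps come from GENCODE transcripts of the same assembly. Overlaps not given with the members include Txnl4a (Gm16286, 457 bases) and Gclm (Gm6061, 244) on the same strand. On the other strand they include Gstz1 (Pomt2, 465), Txndc5 (Gm31834, 311) and Prdx2 (Rnaseh2a, 177, and Junb, 173). The levels of these members are therefore uncertain too. Alternatives covered the pseudocount, the filter, the scaling, the samples fitted, sample weights, the variance prior, a replicate block and each library left out in turn. The members and lists were chosen with earlier results of these data known. Members named with values are a panel of 38 and, per comparison, the 6 largest rises and 6 largest falls among members that passed without overlap. Of each related list and comparison, up to 4 that passed with the largest change and up to 2 in the other direction could be named. Only some of these are named, so the named genes do not represent their lists. Nfe2l2 lies outside this rule. A gene that this rule would name among the sources of peroxide is not reported here.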

Additional observations from a re-analysis of the deposited data

How the results depend on the processing

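Counts of members called higher or lower kept within 1.5 times under all 21 alternatives but 1: in Sting-/- DOX against saline, 24 members were higher and 13 under median-ratio scaling. Without 1 library the counts were 22 to 23 higher and 23 to 26 lower in WT DOX against saline, 19 to 20 and 30 to 32 in Sting-/- DOX against WT DOX, and 22 to 24 and 30 to 33 in Sting-/- DOX against saline. Of 132 results of single named members, 99 kept their direction and side of the threshold under every alternative. Median-ratio scaling and quantile normalization lowered the share of all called genes that were higher from 67.8% to 41.3% and 40.2% in WT DOX against saline, from 64.6% to 49.2% and 51.3% in Sting-/- DOX against WT DOX, and from 70.9% to 51.0% and 51.6% in Sting-/- DOX against saline.

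Directions of members given with their values turned, on the log2 scale, as follows. In WT DOX against saline, median-ratio scaling gave Glrx2 -0.20, Gsto1 -0.11 and Prdx6 -0.18, quantile normalization gave Glrx2 -0.13 and Prdx6 -0.082, and TPM scaling without cardiomyocyte marker and haemoglobin genes gave Glrx2 -0.078 and Prdx6 -0.053. In Sting-/- DOX against WT DOX, median-ratio scaling gave Gstm6 -0.11, Gstp1 -0.13 and Gstp2 -0.23, quantile normalization gave Gstm1 0.088, Gstm6 -0.25, Gstp2 -0.23 and Sod1 0.0011, TPM scaling gave Gstm1 0.058 and Gstz1 0.021, TPM scaling without the genes above gave Gstm6 -0.015 and Gstp2 -0.013, and sample weights gave Gstp2 -0.084. In Sting-/- DOX against saline, median-ratio scaling gave Gstt1 -0.036, Prdx1 -0.52 and Txnrd1 -0.34, quantile normalization gave Gstp1 0.11 and Txnrd1 -0.25, and TPM scaling without the genes above gave Prdx1 -0.15. Without 1 library, values crossed 0 for Glrx5 (-0.065 to 0.020) and Msrb3 (-0.053 to 0.0014) in WT DOX against saline, for Gstm1 (-0.044 to 0.055), Gstm6 (-0.16 to 0.20), Gstp2 (-0.30 to 0.28) and Gstz1 (-0.089 to 0.035) in Sting-/- DOX against WT DOX, and for Prdx1 (-0.016 to 0.057) in Sting-/- DOX against saline. The cause of these turns was not tested.

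Deviations from the group mean were correlated across genes between libraries of different groups. With the same replicate number r was -0.032 to 0.104, and with different numbers -0.066 to 0.035. The same-number values in WT DOX against saline were 0.04, 0.104 and 0.02. With 3 libraries per group these values cannot show whether the numbers pair the libraries. With a replicate block the calls of Glrx3 in WT DOX against saline (-0.11, limma adjusted p = 0.0556) and Gstp1 in Sting-/- DOX against saline (-0.074, limma adjusted p = 0.0682) were lost, and the members called were 22 higher and 25 lower in WT DOX against saline. The depth is approximate, so values of members near 0 FPKM carry no counting interval.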
